A study of Homo sapiens with 12 samples.

Results

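The 10 genes for secreted WNT ligands described here, across 12 RNA-seq libraries of human embryonic stem cell colonies, are WNT1, WNT2B, WNT3, WNT3A, WNT4, WNT5A, WNT5B, WNT6, WNT8A and WNT11. They were chosen by symbol in the deposited gene table, which holds 35940 symbols. The other 9 WNT ligand symbols in the table are given for comparison. The cells were ESI017, an established human embryonic stem cell line carrying a SOX2::mCitrine reporter, a fluorescent readout of the transcription factor SOX2. They were seeded as colonies on micropatterns, glass printed with adhesive areas of set shape, and kept for 3 days in the serum-free medium N2B27. Treated colonies received FGF8 at 200 ng/ml together with WNT3A protein at 100, 300 or 1000 ng/ml, and were dissociated and sorted on the reporter into SOX2-negative and SOX2-positive cells. Control colonies received N2B27 alone, and their labels name no gate. There were 2 libraries of each gate at 100 and at 1000 ng/ml, 1 library of each gate at 300 ng/ml, and 2 control libraries, of 16474856 to 28079048 estimated counts each. Since FGF8 was always added with WNT3A, the effects of these proteins cannot be told apart here. The title of the study names as its question how endogenous Nodal signalling alters the way WNT is read.

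WNT proteins are lipid-modified signals. The acyltransferase PORCN attaches the lipid and the carrier WLS takes the protein to the cell surface, where it binds Frizzled receptors. In the canonical branch, Frizzled and LRP5 or LRP6 stabilise beta-catenin, which acts with TCF and LEF factors on target genes. In the non-canonical branches, Frizzled with ROR2, RYK or PTK7 acts on cell polarity and movement. WNT3 is required for the primitive streak in the mouse, and the streak is where mesoderm and endoderm leave the epiblast of the embryo. The WNT3A protein in the medium was added as protein, so the WNT3A reads below are RNA of the cells' own gene.

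For the 4 genes on which most of the results turn, sequence upstream of an annotated start is shown. The sequences are from RefSeq on GRCh38.p14, 5′ to 3′ on the strand of the gene. Each is the part of the 250 bases before the start that overlaps no annotated exon. This leaves out the 68 bases nearest the start for WNT3 and the 141 nearest for WNT8A. The starts used for WNT3, WNT8A and WNT5A lie inside the gene models given below, not at their 5′ ends. Letters in capitals mark a match to a motif that was searched on both strands. WNT3 (minus strand) is chr17:46818761-46818942, WNT8A (plus strand) is chr5:138083783-138083891, WNT5A (minus strand) is chr3:55481399-55481648 and WNT3A (plus strand) is chr1:228006748-228006997.
WNT3: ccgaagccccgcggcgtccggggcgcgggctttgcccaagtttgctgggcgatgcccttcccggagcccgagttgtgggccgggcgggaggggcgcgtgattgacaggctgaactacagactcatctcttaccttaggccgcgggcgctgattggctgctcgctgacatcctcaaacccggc
WNT8A: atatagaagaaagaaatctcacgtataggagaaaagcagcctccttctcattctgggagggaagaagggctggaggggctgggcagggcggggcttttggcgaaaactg
WNT5A: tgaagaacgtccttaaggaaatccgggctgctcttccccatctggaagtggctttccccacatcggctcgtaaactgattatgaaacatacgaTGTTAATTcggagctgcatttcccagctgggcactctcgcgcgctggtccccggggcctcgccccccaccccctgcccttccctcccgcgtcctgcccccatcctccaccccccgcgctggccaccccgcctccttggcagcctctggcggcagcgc
WNT3A: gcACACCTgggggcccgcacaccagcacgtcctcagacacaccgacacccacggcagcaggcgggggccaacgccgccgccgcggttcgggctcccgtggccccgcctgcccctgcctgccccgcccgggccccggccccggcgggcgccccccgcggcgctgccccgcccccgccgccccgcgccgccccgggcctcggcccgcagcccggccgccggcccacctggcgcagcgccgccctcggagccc
RefSeq entries were matched for 9 of the 10 genes, WNT11 being the one without, and gave 12 starts. The cores CTTTGA and CTTTGT, which TCF and LEF factors bind, were in 0 of these 12 windows, and 22.8% of 35116 windows of the same length over all genes held at least 1 of them. TGTNNATT, which FOXH1 binds, was in 1 window, that of WNT5A shown above, against 9.88% of all windows. AGGTGT, a T-box half-site, was in 3 windows, those of WNT2B, WNT3A and WNT5B, against 9.57% of all windows. In the WNT3A window it reads as ACACCT, its other strand. These are matches of letters, and no binding was measured.

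The gates carried the marker genes of different cells. SOX2 itself, on which the cells were sorted, stood at 1.85 to 6.07 CPM (the count over the library total, on 1 scale in all libraries) in the 5 SOX2-negative libraries, at 430 to 484 CPM in the 5 SOX2-positive libraries and at 649 and 658 CPM in the controls. The endoderm marker SOX17 was at 339 to 744 CPM in SOX2-negative libraries, at 1.85 to 8.68 CPM in SOX2-positive ones and at 0 in both controls. The streak marker EOMES was at 107 to 337 CPM in SOX2-negative, 6.43 to 50.7 CPM in SOX2-positive and 0.0712 to 0.203 CPM in control libraries. The pluripotency gene POU5F1 was at 216 to 644 CPM in SOX2-negative libraries, 1015 to 1984 CPM in SOX2-positive ones and 418 to 501 CPM in controls. The labels call all the cells pluripotent stem cells. In these libraries the pluripotency gene PRDM14 stood at 0.411 to 2.55 CPM in SOX2-negative cells, against 59.7 to 87.5 CPM in SOX2-positive cells. These are bulk libraries, so fewer cells that express a gene and less RNA of it per cell cannot be told apart.

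Between the gates, 5 of the 10 ligand genes were higher in SOX2-negative cells and 0 were lower: WNT3, WNT5A, WNT5B, WNT6 and WNT8A. The test was edgeR's quasi-likelihood test with Benjamini-Hochberg adjustment over 17047 symbols, all 10 ligand genes among them, a gene being called at an adjusted p under 0.05. The gates were compared over the 4 libraries each at 100 and 1000 ng/ml. Over all symbols tested 24.0% were called, 12.9% as higher in SOX2-negative cells. The median log2 fold change of the 10 genes was 1.65, against 0.0067 over all symbols tested. Against control, 6 were higher and 1 lower in SOX2-negative cells, beside 22.5% of all symbols called (12.4% higher, 10.1% lower). In SOX2-positive cells against control, 2 were higher and 0 lower, beside 7.81% of all symbols called (4.65% higher, 3.17% lower). The median of the 10 was 3.00 on the log2 scale for SOX2-negative cells against control and 0.36 for SOX2-positive cells against control, beside 0.0256 and 0.0056 over all symbols. Both comparisons share the 2 control libraries. The filter on low counts asks for a set level in at least 1 library. WNT6 reached it in SOX2-negative libraries only, and WNT1 in 1 SOX2-positive library only. WNT3A, WNT8A and WNT11 reached it in treated libraries only. The place of all these genes among those tested therefore rests on the group where they are high. These counts and medians describe the genes without supporting a difference. Where a library was left out of a fit, the library left alone in its group was assumed to vary like the other groups.

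**Figure D1:**
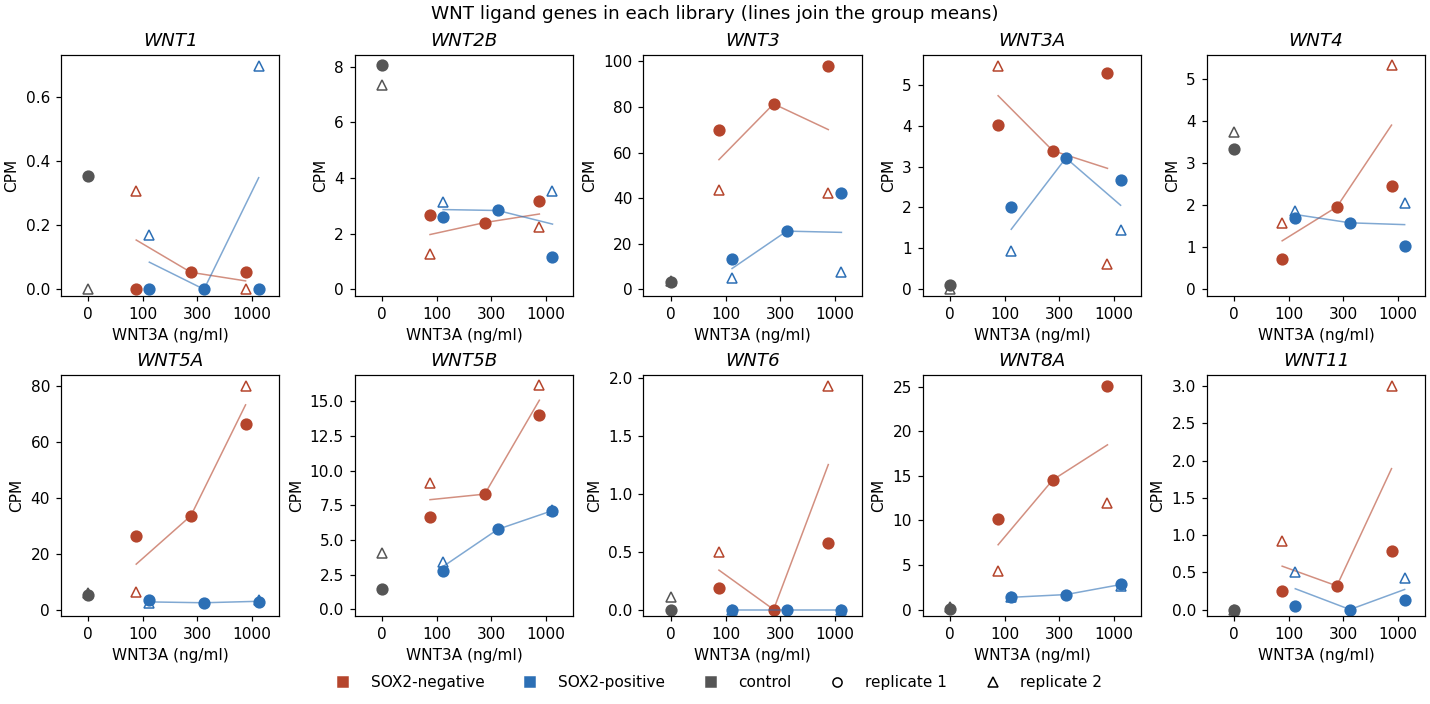
Level of each WNT ligand gene in every library, in CPM (vertical axes, each on its own scale), by the dose of WNT3A added (horizontal axes, dose steps evenly spaced, 0 being the control). Filled circles are replicate 1, open triangles replicate 2, and lines join group means. The 5 SOX2-negative libraries lie between 42.0 and 98.1 CPM for WNT3 and the controls at 3.34 and 3.78 CPM.

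WNT3, the canonical ligand of the streak, had the highest level per kilobase of exon of the 10 in 4 of the 5 SOX2-negative libraries, WNT5A being first in the other one. Its gene lies on the minus strand of chromosome 17 (GRCh38, 46762506 to 46833154). It had 70.0 and 43.8 CPM in SOX2-negative cells at 100 ng/ml, 81.3 CPM at 300 ng/ml, and 98.1 and 42.0 CPM at 1000 ng/ml. In SOX2-positive cells it had 13.5 and 4.73 CPM at 100 ng/ml, 25.5 CPM at 300 ng/ml, and 42.3 and 7.65 CPM at 1000 ng/ml. The controls had 3.34 and 3.78 CPM. The ranges of the gates just overlapped, since replicate 1 of SOX2-positive cells at 1000 ng/ml was level with the lowest SOX2-negative library. Within each dose and repeat the SOX2-negative library was higher in 5 of 5 pairs, by 2.32-fold to 9.24-fold. Here and for the genes below, the pairing rests on the replicate number alone. The share of all symbols higher in 5 of 5 pairs was not computed, so these counts describe the genes only. Every treated library of either gate was above both controls. At 100 and 1000 ng/ml this held for 20.1% of all symbols tested in SOX2-negative cells and for 25.8% in SOX2-positive cells.

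WNT3 averaged 63.5 ± 26.4 CPM in SOX2-negative cells and 17.0 ± 17.2 CPM in SOX2-positive cells (SD, n = 4 libraries each), a log2 fold change of 2.15 ± 0.50 (SE, adjusted p = 0.0104). Without replicate 1 of SOX2-positive cells at 1000 ng/ml it was 2.98 (adjusted p = 0.00146). Against the control mean of 3.56 CPM, SOX2-negative cells were higher by 4.15 ± 0.75 on the log2 scale (adjusted p = 0.00261). In SOX2-positive cells the difference from control was 2.01 ± 0.68 and was not called (adjusted p = 0.110). It was called at an adjusted p of 0.0243 without replicate 2 of SOX2-positive cells at 1000 ng/ml, and at 9.5e-11 with no filter on low counts.

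The SOX2-positive libraries split by repeat. The 3 of replicate 1 had 13.5, 25.5 and 42.3 CPM of WNT3 at 100, 300 and 1000 ng/ml, and the 2 of replicate 2 had 4.73 and 7.65 CPM at 100 and 1000 ng/ml. Streak markers split the same way there. TBXT, the streak factor Brachyury, had 8.78, 14.4 and 27.3 CPM in replicate 1 at the 3 doses and 1.23 and 4.13 CPM in replicate 2 at 100 and 1000 ng/ml. MIXL1 had 6.21, 11.3 and 19.4 CPM in replicate 1, and 0.845 and 1.76 CPM in replicate 2. All 4 streak markers set for this check (TBXT, MIXL1, EOMES and GSC) were lower in replicate 2 at 100 and at 1000 ng/ml. Their summed level in SOX2-positive cells was 31.0, 54.1 and 99.1 CPM in replicate 1, and 8.50 and 16.1 CPM in replicate 2. Sums of other marker lists differed as well, at 100 and 1000 ng/ml in turn. Pluripotency (1961 against 2594, 2190 against 2939 CPM) and endothelial sums (99.9 against 113, 147 against 196.6 CPM) were lower in replicate 2. Single markers of these lists went both ways. At 100 ng/ml, 1 pluripotency marker was higher there and 3 were lower, and 3 endothelial markers were higher and 1 lower. At 1000 ng/ml each of these lists had 2 higher and 2 lower. Neural sums (142 against 88.9, 130 against 49.9 CPM) were higher there. So were surface ectoderm and amnion (38.05 against 28.35, 75.05 against 23.17 CPM) and lateral mesoderm (2.66 against 1.23, 15.9 against 7.28 CPM). Neural markers had 4 higher and 0 lower at 100 ng/ml, and 3 and 0 at 1000 ng/ml. Surface ectoderm and amnion had 3 higher and 1 lower, then 4 and 0. Lateral mesoderm had 2 higher and 1 lower, then 4 and 0. The part of these cell mixtures in the WNT3 level was not tested.

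The WNT3 counts stand on 3 Ensembl identifiers, of which ENSG00000108379 is the gene on the main chromosome 17 sequence and ENSG00000277626 and ENSG00000277641 share its symbol. The authors' counting divided the reads among them unevenly. In control replicate 1 all 66 counts were on ENSG00000277626, and in control replicate 2 all 106 were on ENSG00000108379. In SOX2-negative cells at 1000 ng/ml, replicate 1 had 84.7% of its WNT3 counts on ENSG00000277641 and replicate 2 had 91.1% on ENSG00000277626. The sum over the 3 identifiers is used throughout. With the identifiers taken apart, the one with the most counts was no longer called, with an adjusted p of 0.434 between the gates and of 0.159 for SOX2-negative cells against control.

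**Figure D2:**
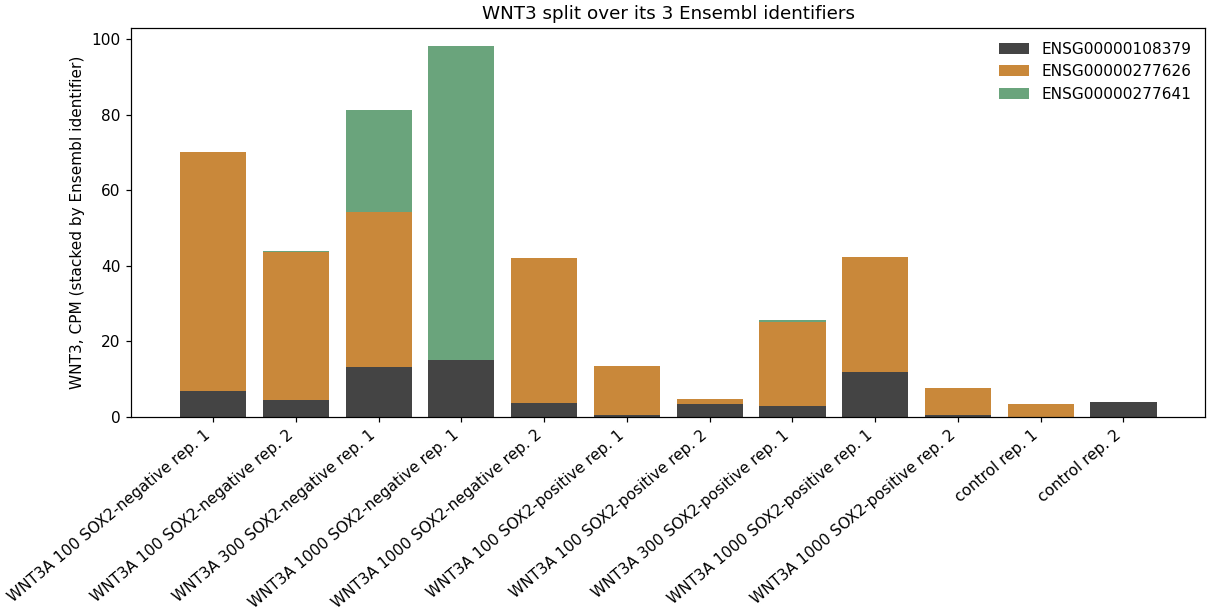
CPM of WNT3 in each library (vertical axis), stacked by Ensembl identifier, with SOX2-negative libraries on the left, SOX2-positive ones in the middle and controls on the right. The sums are 42.0 to 98.1 CPM in SOX2-negative, 4.73 to 42.3 CPM in SOX2-positive and 3.34 and 3.78 CPM in control libraries, while the share of each identifier shifts between replicates, as in SOX2-negative cells at 1000 ng/ml, where replicate 1 holds 84.7% on ENSG00000277641 and replicate 2 holds 0 counts there.

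WNT8A, a ligand expressed in the early streak of the mouse embryo, was low in control colonies and was called as higher between the gates and in each gate against control. It is on the plus strand of chromosome 5 (138083892 to 138092365). SOX2-negative cells had 10.2 and 4.34 CPM at 100 ng/ml, 14.6 CPM at 300 ng/ml, and 25.1 and 11.9 CPM at 1000 ng/ml. SOX2-positive cells had 1.39 and 1.35 CPM at 100 ng/ml, 1.68 CPM at 300 ng/ml, and 2.91 and 2.69 CPM at 1000 ng/ml. The controls had 0.0506 and 0.285 CPM. No ranges overlapped among SOX2-negative, SOX2-positive and control libraries, and within the 5 pairs of a dose and repeat the SOX2-negative library was 3.21-fold to 8.67-fold higher.

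The log2 fold change of WNT8A was 2.62 ± 0.38 between the gates (adjusted p = 0.000579), 5.94 ± 0.66 for SOX2-negative cells against control (adjusted p = 0.000111) and 3.32 ± 0.63 for SOX2-positive cells against control (adjusted p = 0.0100). The controls hold few counts of WNT8A, and 1 of them moves both folds. Without control replicate 1 the log2 fold change was 5.30 in SOX2-negative cells (adjusted p = 0.00213) and 2.68 in SOX2-positive cells, which was not called (0.0918). Without control replicate 2 it was 7.69 in SOX2-negative cells (0.00125) and 5.07 in SOX2-positive cells (0.0434). Libraries at 100 and 1000 ng/ml that all lay above the other group were seen for 11.5% of all symbols tested between the gates, for 20.1% in SOX2-negative cells against control and for 25.8% in SOX2-positive cells against control.

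The cells' own WNT3A, a canonical ligand that in the mouse acts in the streak and tailbud, was close to absent in control colonies, with 2 counts in the pair of libraries. It lies on the plus strand of chromosome 1 (228007051 to 228061260). It had 4.01 and 5.45 CPM in SOX2-negative cells at 100 ng/ml, 3.39 CPM at 300 ng/ml, and 5.29 and 0.616 CPM at 1000 ng/ml. SOX2-positive cells had 2.00 and 0.930 CPM at 100 ng/ml, 3.21 CPM at 300 ng/ml, and 2.67 and 1.44 CPM at 1000 ng/ml. The controls had 0.101 and 0 CPM. The gates overlapped, because replicate 2 of SOX2-negative cells at 1000 ng/ml was the lowest of the 10 treated libraries.

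Pooled WNT3A counts, as CPM, were 90.2 times those of control in SOX2-negative cells (95% exact interval for counting error only, 24.8 to 747.7) and 40.1 times in SOX2-positive cells (10.9 to 334.2). Both differences were called, with an adjusted p of 0.0047 in SOX2-negative cells and of 0.0322 in SOX2-positive cells. The call in SOX2-negative cells was lost without control replicate 2 (adjusted p = 0.0607). In SOX2-positive cells it was lost without control replicate 1 (0.0977), control replicate 2 (0.304), replicate 1 at 100 ng/ml (0.0761) or replicate 1 at 1000 ng/ml (0.0711), these being adjusted p-values. Between the gates WNT3A differed by 1.20 ± 0.64 on the log2 scale and was not called (adjusted p = 0.205). With no filter on low counts it was called as higher in SOX2-negative cells (1.19, adjusted p = 0.0326).

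In the SOX2-negative library with the low WNT3A, that of replicate 2 at 1000 ng/ml, TBXT stood at 9.08 CPM, against 58.5 CPM in replicate 1 of the same dose, and MIXL1 at 15.4 against 106 CPM. The lateral mesoderm marker HAND1 stood at 176 CPM there, against 57.9 CPM in replicate 1, and the VEGF receptor KDR at 271 against 81.6 CPM. Of the marker lists, all 4 streak markers were lower there than in replicate 1 (summed level 132 against 509 CPM), as were all 4 endoderm markers (656 against 1011 CPM) and all 4 pluripotency markers (390 against 639 CPM). All 4 endothelial markers were higher (281 against 89.9 CPM). Lateral mesoderm had 2 higher and 2 lower (528 against 537 CPM), as did surface ectoderm and amnion (222 against 181 CPM), while neural markers had 1 higher and 2 lower of 4 (24.4 against 79.3 CPM) and presomitic mesoderm 1 higher and 2 lower of 3 (12.5 against 20.1 CPM). The part of this cell mixture in the WNT values was not tested.

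WNT2B was lower in SOX2-negative cells than in control. It is a ligand of the canonical branch, on the plus strand of chromosome 1 (112466541 to 112530165), where its model overlaps those of ST7L and AL354760.1 on the other strand. It had 2.67 and 1.26 CPM in SOX2-negative cells at 100 ng/ml, 2.40 CPM at 300 ng/ml, and 3.18 and 2.22 CPM at 1000 ng/ml. SOX2-positive cells had 2.59 and 3.13 CPM at 100 ng/ml, 2.83 CPM at 300 ng/ml, and 1.15 and 3.53 CPM at 1000 ng/ml. The controls had 8.07 and 7.32 CPM, above all 10 treated libraries.

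The log2 fold change of WNT2B against control was -1.74 ± 0.45 in SOX2-negative cells (adjusted p = 0.0180) and -1.63 ± 0.45 in SOX2-positive cells, where it was not called (adjusted p = 0.0515). The first call was lost without control replicate 1 (adjusted p = 0.112), control replicate 2 (0.0987) or replicate 2 of SOX2-negative cells at 1000 ng/ml (0.0541). The second became a call with DESeq2 (adjusted p = 0.0196), among other settings. Between the gates the difference was -0.11 ± 0.39 (adjusted p = 0.874). Libraries that all lie below the controls made up 20.6% of the symbols tested for SOX2-negative cells and 18.2% for SOX2-positive cells.

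WNT1, the ligand of the midbrain and hindbrain border, was at the edge of detection in every group. It is on the plus strand of chromosome 12 (48978453 to 48981676). It had 0 and 0.307 CPM in SOX2-negative cells at 100 ng/ml, 0.0529 CPM at 300 ng/ml, and 0.0524 and 0 CPM at 1000 ng/ml. SOX2-positive cells had 0 and 0.169 CPM at 100 ng/ml, 0 at 300 ng/ml, and 0 and 0.696 CPM at 1000 ng/ml. The controls had 0.354 and 0 CPM. No difference was called, and the counts of 9 in SOX2-negative, 19 in SOX2-positive and 7 in control libraries (100 and 1000 ng/ml in the gates) leave wide errors, with a log2 fold change of -1.27 ± 1.72 between the gates. Only 1 library, of SOX2-positive cells, reached the level the filter asks for.

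WNT5A, the best known ligand of the non-canonical branch, had the clearest difference between the gates. Its gene is on the minus strand of chromosome 3 (55465715 to 55490539), with the antisense gene WNT5A-AS1 across it. SOX2-negative cells had 26.2 and 6.30 CPM at 100 ng/ml, 33.6 CPM at 300 ng/ml, and 66.5 and 79.9 CPM at 1000 ng/ml. SOX2-positive cells had 3.29 and 2.16 CPM at 100 ng/ml, 2.42 CPM at 300 ng/ml, and 2.55 and 3.34 CPM at 1000 ng/ml. The controls had 5.32 and 5.98 CPM. Every SOX2-negative library was above both controls and every SOX2-positive library below both. At 100 and 1000 ng/ml, 20.1% of all symbols tested had the first ordering and 18.2% the second. The lowest SOX2-negative library, replicate 2 at 100 ng/ml, was close to control. In that library the summed level of the 4 streak markers was 147.5 CPM, against 368 CPM in replicate 1 of the same dose. The sums of lateral mesoderm (197.7 against 314.5 CPM) and neural markers (57.5 against 95.7 CPM) were lower there too. Those of endoderm (1109 against 997 CPM) and pluripotency markers (747 against 715 CPM) were higher. Single markers did not all follow their sum. Lateral mesoderm had 1 marker higher and 3 lower, and neural had 2 higher and 1 lower. Endoderm had 2 higher and 2 lower, and pluripotency had 1 higher and 3 lower. At 1000 ng/ml the streak sum was also lower in replicate 2 (132 against 509 CPM), while WNT5A was higher there (79.9 against 66.5 CPM). The part of these cell mixtures in the WNT5A level was not tested.

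The mean of WNT5A was 44.7 ± 34.3 CPM in SOX2-negative cells and 2.83 ± 0.58 CPM in SOX2-positive cells (SD, n = 4 each), a log2 fold change of 3.65 ± 0.37 (adjusted p = 5.65e-05). Against control, the log2 fold change was 2.59 ± 0.46 in SOX2-negative cells (adjusted p = 0.00245). Without replicate 1 of SOX2-negative cells at 100 ng/ml these values were 3.03 between the gates (adjusted p = 3.11e-06) and 1.97 against control (0.000170). In SOX2-positive cells it was -1.06 ± 0.42 and was not called (adjusted p = 0.174). It was called as lower when the groups compared were fitted alone (adjusted p = 0.0436), with no filter on low counts (0.00237), or without replicate 1 (0.00903) or replicate 2 (0.00880) of SOX2-negative cells at 100 ng/ml.

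WNT5B, the closest relative of WNT5A in the family, was higher in SOX2-negative cells too, by less. It is on the plus strand of chromosome 12 (1529891 to 1647243) and its model overlaps that of FBXL14. It had 6.68 and 9.14 CPM in SOX2-negative cells at 100 ng/ml, 8.31 CPM at 300 ng/ml, and 14.0 and 16.1 CPM at 1000 ng/ml. SOX2-positive cells had 2.77 and 3.42 CPM at 100 ng/ml, 5.77 CPM at 300 ng/ml, and 7.10 and 7.14 CPM at 1000 ng/ml. The controls had 1.47 and 4.06 CPM. The gates overlapped across doses. The SOX2-negative library was higher in 5 of 5 pairs of a dose and repeat, by 1.44-fold to 2.67-fold. That count has no share of all symbols to set beside it.

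The log2 fold change of WNT5B was 1.30 ± 0.31 between the gates (adjusted p = 0.0111) and 1.98 ± 0.41 for SOX2-negative cells against control (adjusted p = 0.00579). The second was not called without control replicate 1 (adjusted p = 0.0516) and was 2.93 without control replicate 2 (adjusted p = 0.00384). SOX2-positive cells differed from control by 0.68 ± 0.39, which was not called (adjusted p = 0.365).

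WNT11, a non-canonical ligand with roles in gastrulation movements in frog and fish, was low throughout and had 0 counts in the controls. It is on the minus strand of chromosome 11 (76186325 to 76210736) with AP000785.1 antisense to it. It had 0.243 and 0.922 CPM in SOX2-negative cells at 100 ng/ml, 0.318 CPM at 300 ng/ml, and 0.786 and 3.00 CPM at 1000 ng/ml. SOX2-positive cells had 0.0514 and 0.507 CPM at 100 ng/ml, 0 at 300 ng/ml, and 0.121 and 0.418 CPM at 1000 ng/ml. The gates overlapped. The SOX2-negative library was higher in 5 of 5 pairs of a dose and repeat, a count that again has no share of all symbols beside it.

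Against a floor of 3 counts over the control libraries, WNT11 was at least 21.5-fold higher in SOX2-negative cells (adjusted p = 0.0247) and at least 4.71-fold higher in SOX2-positive cells, where the difference was not called (adjusted p = 0.155). The call was lost without control replicate 1 (adjusted p = 0.117), control replicate 2 (0.147) or replicate 2 of SOX2-negative cells at 1000 ng/ml (0.0620). Between the gates the log2 fold change was 2.00 ± 0.94 and was not called (adjusted p = 0.156). With no filter on low counts WNT11 was called as higher in SOX2-positive cells against control (adjusted p = 0.0403).

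WNT4, which the mouse needs to form kidney tubules, was below both controls in all treated libraries but 1. It lies on the minus strand of chromosome 1 (22117305 to 22143969), where AL445253.1 overlaps it. It had 0.728 and 1.57 CPM in SOX2-negative cells at 100 ng/ml, 1.96 CPM at 300 ng/ml, and 2.46 and 5.34 CPM at 1000 ng/ml. In SOX2-positive cells it had 1.69 and 1.86 CPM at 100 ng/ml, 1.58 CPM at 300 ng/ml, and 1.03 and 2.04 CPM at 1000 ng/ml. The controls had 3.34 and 3.74 CPM. The exception was replicate 2 of SOX2-negative cells at 1000 ng/ml, which was above both. SOX2-positive libraries at 100 and 1000 ng/ml that all lie below the controls were seen for 18.2% of all symbols tested.

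WNT4 was not called in any comparison. Its log2 fold change was 0.46 ± 0.43 between the gates (adjusted p = 0.475), -0.70 ± 0.50 for SOX2-negative cells against control (0.361) and -1.16 ± 0.50 for SOX2-positive cells against control (0.214).

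WNT6, a ligand known mostly from epithelia, had 0 counts in all 5 SOX2-positive libraries. It is on the plus strand of chromosome 2 (218859821 to 218874233). It had 0.182 and 0.499 CPM in SOX2-negative cells at 100 ng/ml, 0 at 300 ng/ml, and 0.577 and 1.93 CPM at 1000 ng/ml. The controls had 0 and 0.107 CPM. With a floor of 3 counts over the SOX2-positive libraries at 100 and 1000 ng/ml, WNT6 was at least 23.3-fold higher in SOX2-negative cells (adjusted p = 0.0138). Only 2 SOX2-negative libraries and no other reached the level the filter asks for, so WNT6 was tested only because of the group where it is high. The call was lost with the 300 ng/ml libraries counted in (adjusted p = 1.00) and without replicate 2 at 1000 ng/ml in SOX2-negative cells (0.0528). Against control the ratio of pooled counts, as CPM, was 13.7 (95% exact interval for counting error only, 4.52 to 68.1) and was not called (adjusted p = 0.141).

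**Figure D3:**
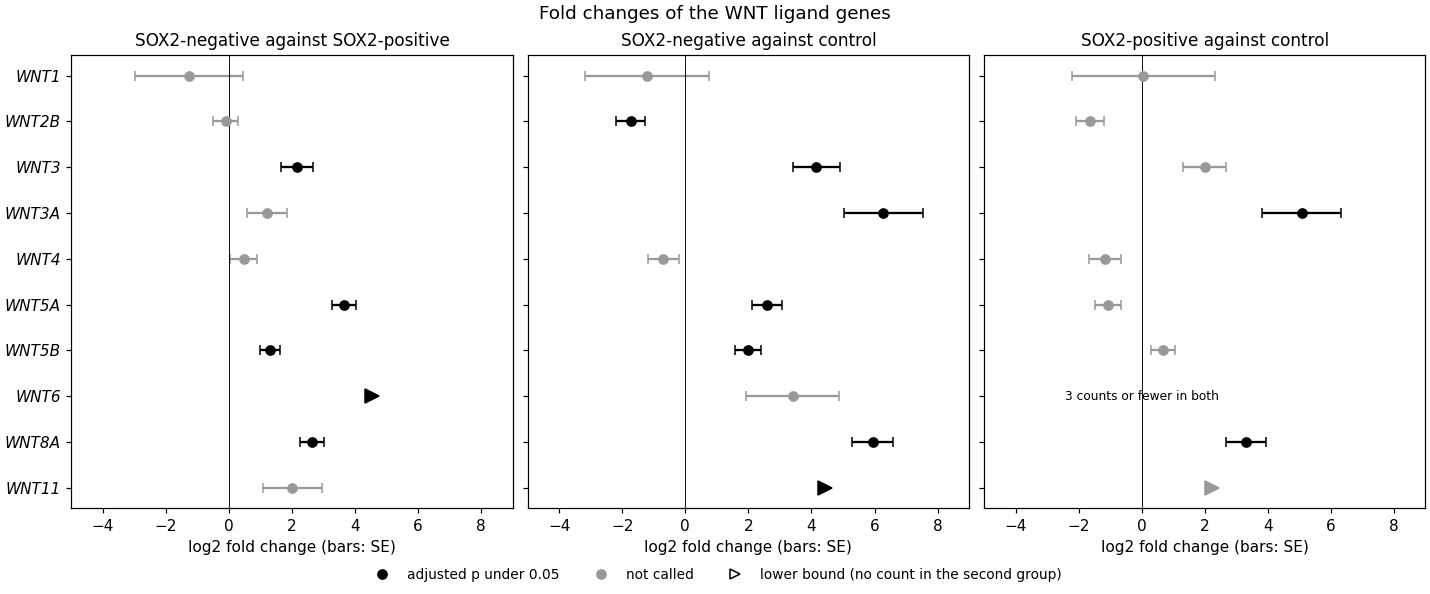
Log2 fold change with its SE (horizontal axes) for each ligand gene in 3 comparisons, black where the adjusted p is under 0.05 and grey where it is not. Triangles are lower bounds against 3 counts over a group with 0 counts. Between the gates WNT5A lies furthest right of the genes with a fitted value, at 3.65, and WNT2B lies left of 0 in all 3 panels.

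Dose was compared as 1000 against 100 ng/ml within each gate. With edgeR, 0 of the 10 genes and 0 of the 17047 symbols were called in SOX2-negative cells, in SOX2-positive cells or for the difference between these dose effects (0.0% called in each). At an unadjusted p under 0.05 there were 3107, 293 and 1349 symbols in these 3 tests, and DESeq2 called 423, 5 and 15. The gene nearest to a call was WNT5A in SOX2-negative cells, with 73.2 ± 9.53 CPM at 1000 ng/ml and 16.2 ± 14.0 CPM at 100 ng/ml (SD, n = 2 each). That is a log2 fold change of 2.18 ± 0.48 (unadjusted p = 0.000958, adjusted p = 0.199), and the single library at 300 ng/ml lay between, at 33.6 CPM. DESeq2 called it (adjusted p = 0.00143). With a library of these doses left out the value ran from 1.51, without replicate 2 at 100 ng/ml (adjusted p = 0.294), to 3.41, without replicate 1 at 100 ng/ml (0.00163), and the adjusted p was 0.742 without replicate 2 at 1000 ng/ml. Each of these rests on 1 library in a dose group, and without replicate 1 at 100 ng/ml 5739 of all symbols were called.

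In SOX2-positive cells WNT5A had 2.94 ± 0.56 CPM at 1000 ng/ml and 2.72 ± 0.80 CPM at 100 ng/ml. The dose effect on WNT5A differed between the gates by 2.04 ± 0.70 on the log2 scale (unadjusted p = 0.0149, adjusted p = 0.525). It was 1.38 without replicate 2 of SOX2-negative cells at 100 ng/ml (adjusted p = 1.00) and 3.27 without replicate 1 (0.00798), where 3795 of all symbols were called and that group is again 1 library. With no filter on low counts the difference was called (adjusted p = 0.00295). For WNT8A the dose effect was 1.33 ± 0.50 in SOX2-negative cells (adjusted p = 0.255) and 1.03 ± 0.54 in SOX2-positive cells (adjusted p = 1.00). In SOX2-negative cells it was called with no filter on low counts (adjusted p = 0.0306), and was 1.96 without replicate 1 at 100 ng/ml. For WNT3 in SOX2-positive cells the dose effect was 1.46 ± 0.71 and was not called. It was called with no filter on low counts (adjusted p = 0.000507), and was -0.24 without replicate 1 at 1000 ng/ml. For WNT5B it was 0.86 ± 0.43 in SOX2-negative cells (adjusted p = 0.294) and 1.20 ± 0.44 in SOX2-positive cells (adjusted p = 1.00). Its libraries at 1000 ng/ml were above those at 100 ng/ml in both gates, as were those of WNT8A, but neither dose effect of WNT5B was called. The share of all symbols with that ordering was not computed, so it does not show a dose effect.

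Compared between genes per kilobase of exon, the ligand mixture differed between the groups. In SOX2-negative cells the mean level was highest for WNT3, at 14.6 ± 6.09 CPM per kb, followed by WNT8A at 6.16 ± 4.19, WNT5A at 6.05 ± 4.64, WNT5B at 2.67 ± 1.01 and WNT3A at 1.31 ± 0.77 CPM per kb (SD, n = 4). No neighbours in this order differed by more than their summed SDs. In SOX2-positive cells WNT3 was again first, at 3.93 ± 3.97 CPM per kb, with WNT5B at 1.19, WNT8A at 0.998, WNT3A at 0.600 and WNT5A at 0.383 CPM per kb, and the only neighbours further apart than their summed SDs were WNT11 and WNT6 at the low end. In control colonies WNT3, WNT4, WNT5A, WNT5B and WNT2B lay between 0.613 and 0.821 CPM per kb, and of all neighbours only WNT2B and the next gene, WNT1 at 0.132, differed by more than their summed SDs.

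As a share of the summed level of the 10 genes per kb, WNT3 made up 28.6 to 57.5% in SOX2-negative libraries, 25.0 to 67.6% in SOX2-positive ones and 20.6 to 21.8% in controls. WNT8A made up 11.3 to 23.9% in SOX2-negative, 8.01 to 18.2% in SOX2-positive and 0.686 to 3.22% in control libraries. WNT2B made up 0.505 to 0.758% in SOX2-negative, 0.633 to 6.03% in SOX2-positive and 13.8 to 18.2% in control libraries. The order was the same for WNT4, with 0.573 to 3.48% in SOX2-negative, 1.58 to 9.92% in SOX2-positive and 19.5 to 20.9% in control libraries. The sum itself differs between the groups, so a lower share is not a lower level. At 100 and 1000 ng/ml WNT4 averaged 0.558 CPM per kb in SOX2-negative and 0.366 in SOX2-positive cells. WNT2B averaged 0.186 and 0.207 CPM per kb. The share of WNT5A in SOX2-negative libraries ran from 4.64% to 31.9%, the low end being replicate 2 at 100 ng/ml and the high end replicate 2 at 1000 ng/ml.

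**Figure D4:**
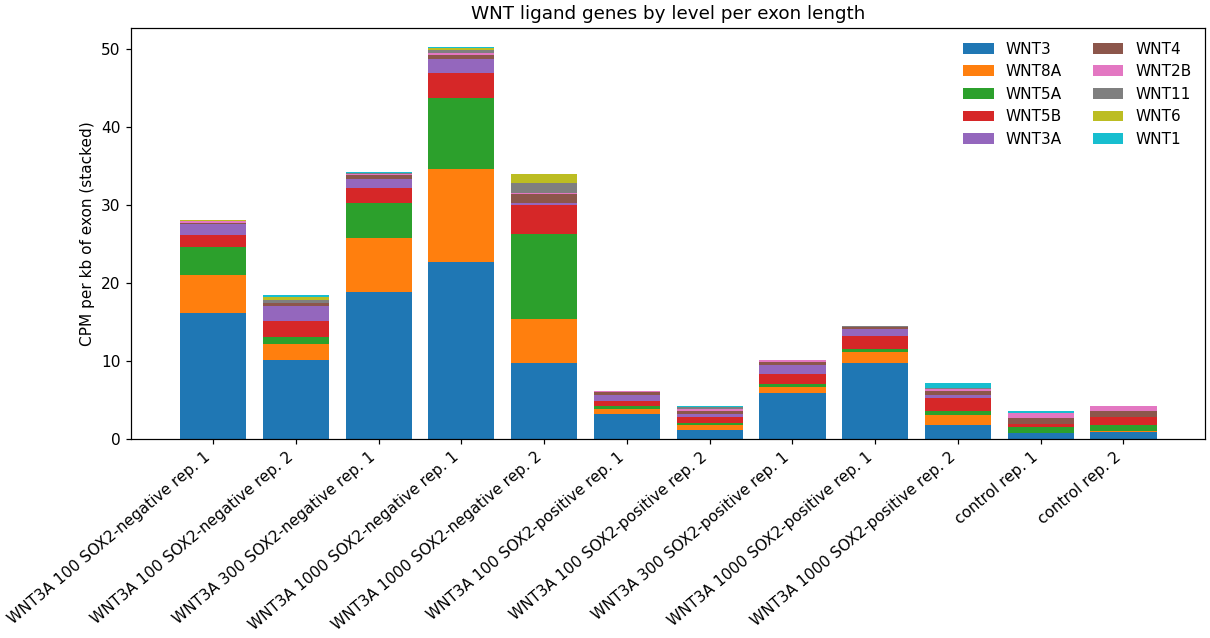
Summed level of the 10 ligand genes per kilobase of exon in each library (vertical axis, CPM per kb), stacked by gene, with SOX2-negative libraries on the left, SOX2-positive ones in the middle and controls on the right. The stacks reach 18.4 to 50.2 CPM per kb in SOX2-negative, 4.14 to 14.4 in SOX2-positive and 3.53 and 4.23 in control libraries.

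Of the other 9 WNT ligand genes, 6 were tested, and 1 was higher and 1 lower in SOX2-negative than in SOX2-positive cells. These counts are near the shares of all symbols tested, 12.9% higher and 11.1% lower. WNT8B, a ligand of the forebrain, was the lower one. It had 0 counts in the 4 SOX2-negative libraries at 100 and 1000 ng/ml and 0.0529 CPM at 300 ng/ml, against 0.411 to 1.23 CPM in SOX2-positive libraries and 2.33 and 7.55 CPM in controls. Against 3 counts over those 4 libraries, SOX2-positive cells were at least 22.9-fold higher than SOX2-negative cells (adjusted p = 0.00325) and control at least 154.5-fold higher (adjusted p = 0.000532). Its paralogue WNT8A had its highest libraries in the gate where WNT8B had none or 1 count.

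WNT9B was the higher one, with 3.20 to 6.46 CPM in SOX2-negative libraries, 1.65 to 2.37 CPM in SOX2-positive ones and 0.760 and 0.285 CPM in controls. Its log2 fold change was 1.26 ± 0.36 between the gates (adjusted p = 0.0276, and 0.125 with its 2 identifiers apart) and 3.12 ± 0.53 for SOX2-negative cells against control (adjusted p = 0.00177). WNT9B starts 46 bases from the 5′ end of the WNT3 model, on the opposite strand, and no strand setting of the counting is given in the sources used here. WNT9A, whose model is 59.2 kb from that of WNT3A, had 2.73 to 4.18 CPM in SOX2-negative, 1.40 to 3.82 CPM in SOX2-positive and 3.67 and 3.75 CPM in control libraries and was not called in any comparison.

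WNT7B had 1 count over the 4 SOX2-positive libraries at those doses and 32 in controls, a ratio of 0.0184 (95% exact interval for counting error only, 0.000452 to 0.110), and was called as lower (adjusted p = 0.0369). The SOX2-positive library at 300 ng/ml, which is not in that ratio, had 6 counts (0.296 CPM), more than the other 4 together. WNT10B and WNT16 were not called, and WNT2, WNT7A and WNT10A were too low to be tested, WNT10A being at 0 in all 12 libraries.

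**Figure D5:**
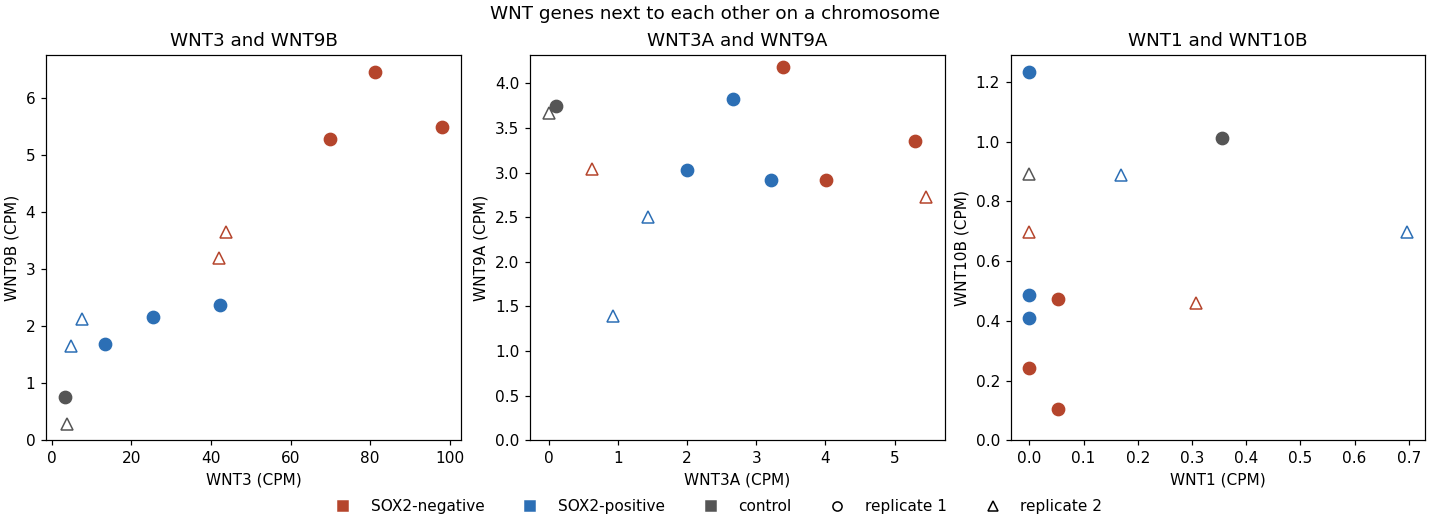
CPM of a ligand gene (horizontal axes) and of the WNT gene next to it on the chromosome (vertical axes) in the 12 libraries, for WNT3 with WNT9B, WNT3A with WNT9A and WNT1 with WNT10B. Colours mark SOX2-negative, SOX2-positive and control, and symbols the replicate. The 5 SOX2-negative libraries have both the highest WNT9B, 3.20 to 6.46 CPM, and 42.0 to 98.1 CPM of WNT3.

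The genes that make and clear WNT proteins also differed between the gates. Of 8 genes for secretion and extracellular inactivation, 5 were higher and 1 lower in SOX2-negative cells, with a median log2 fold change of 0.62. Over all symbols tested 12.9% were higher and 11.1% lower. WLS, the carrier that WNT proteins need to leave the cell, averaged 182 ± 31.4 CPM in SOX2-negative cells and 18.3 ± 9.45 CPM in SOX2-positive cells (log2 fold change 3.49 ± 0.29, adjusted p = 1.42e-05). PORCN averaged 25.3 ± 10.4 CPM in SOX2-negative and 15.1 ± 1.05 CPM in SOX2-positive cells (0.77 ± 0.20, adjusted p = 0.0152). NOTUM, the secreted enzyme that removes the lipid, averaged 169 ± 52.0 CPM in SOX2-negative and 8.46 ± 3.76 CPM in SOX2-positive cells (4.51 ± 0.30, adjusted p = 3.4e-06). TRABD2A, a protease that inactivates WNT proteins, was the lower one (-1.61 ± 0.31, adjusted p = 0.00377).

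Of 16 receptors and co-receptors, 7 were higher and 2 lower in SOX2-negative cells, beside 12.9% higher and 11.1% lower of all symbols tested. The count of lower ones is near that share. ROR2, a receptor for WNT5A, averaged 138 ± 25.4 CPM in SOX2-negative cells, 22.4 ± 7.07 CPM in SOX2-positive cells and 45.1 ± 21.5 CPM in controls, with a log2 fold change of 2.71 ± 0.26 between the gates (adjusted p = 3.36e-05). FZD4 averaged 130 ± 34.5 CPM in SOX2-negative and 21.4 ± 1.40 CPM in SOX2-positive cells (2.66 ± 0.17, adjusted p = 3.15e-06). FZD1 and FZD7 were higher as well, by 1.70 ± 0.29 and 0.92 ± 0.18 on the log2 scale (adjusted p = 0.00149 and 0.00418). Against control, SOX2-positive cells had 0 of the 16 higher and 6 lower, beside 4.65% higher and 3.17% lower of all symbols tested.

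Of 12 direct targets of the canonical branch, 8 were higher and 0 lower in SOX2-negative cells, among them SP5 (3.77 ± 0.52, adjusted p = 0.000389) and TNFRSF19 (3.24 ± 0.45, adjusted p = 0.000398). The median log2 fold change of the 12 was 1.64. Over all symbols tested 12.9% were higher and 11.1% lower between the gates. NOTUM, LGR5, RNF43, ZNRF3, LEF1 and TCF7 are on this list and on other lists used here, so the counts overlap. In SOX2-positive cells against control, 1 of the 12 was higher and 1 lower, beside 4.65% and 3.17% of all symbols tested.

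Some genes ran close to the ligand genes over the 12 libraries. Likeness was measured as Pearson's r of log2 CPM over these libraries among genes with a mean of at least 5 CPM, and the gates are part of it, so it is a description. The most alike were VANGL1 for WNT3 (r = 0.99), HECW2 for WNT5A (0.99), CLDN11 for WNT8A (0.99), AIFM2 for WNT3A (0.97), BRICD5 for WNT11 (0.95), GPC6 for WNT5B (0.94), DDIT4L for WNT2B (0.93), PRR5L for WNT6 (0.92), EIF2AK3 for WNT4 (0.86) and ARHGEF4 for WNT1 (0.86). Among the ligand genes, WNT3 was most like WNT8A (r = 0.90) and WNT5A most like WNT6 (r = 0.74), while WNT2B ran against WNT3A (r = -0.77).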

How the data were processed

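Poly-A RNA was sequenced as paired ends from random-hexamer cDNA, per the labels' protocols. Per the submitters' processing notes Salmon was used and the build was GRCh38; version, annotation release and strand setting are not given in the sources used here. The values the authors deposited are estimated counts per Ensembl identifier, unscaled between libraries, with totals of 16474856 to 28079048. They were summed by symbol (37951 identifiers, 35940 symbols, 1034 of them on several) and rounded. CPM divides by the library total. Level per kb uses GENCODE 29 exon length.

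Symbols passing filterByExpr (minimum count 10, total 15) entered edgeR 4.0.16 under R 4.3.3 (TMM, quasi-likelihood, two-sided, Benjamini-Hochberg, adjusted p under 0.05) in 1 model of 7 group means with 5 residual degrees of freedom. The gates and control were compared with 100 and 1000 ng/ml averaged. The SE of a log2 fold change is its absolute value divided by the square root of its quasi-likelihood F statistic. DESeq2 1.42.0, other scaling, no filter, fewer groups, a replicate block, identifiers apart, the mean of 3 doses and each library left out were alternatives.

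Per the series description all conditions but 300 ng/ml were repeated once, and the replicate number was taken to mark that repeat, which is the only source of the pairing. The data do not show it throughout: deviations of same-numbered libraries correlated at -0.27 to 0.46 across genes over 10 pairs of groups, 5 of them over 0.1. The p-values measure the spread between repeats of 1 cell line. Replicate libraries of a group were not near-identical: chi-square over degrees of freedom was 22.8 to 142.4. Folds against 0 counts use a floor of 3 counts over the group. Floors and intervals cover counting error only.

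The genes named were the 10 ligand genes, the other WNT ligands, up to 4 called genes of each further pathway list by size of the difference between the gates, and the genes most alike over libraries. The 10 genes, the pathway lists, the markers and the motifs were chosen with earlier results of these data known.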

Additional observations from a re-analysis of the deposited data

How the results depend on the processing

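Of 908 values of single ligand genes under alternative settings, 840 kept their direction and their side of the threshold, 17 lost and 22 gained a call, and 29 changed sign, none of them a called value. With 1 library left out, 4 to 5 ligand genes (2638 to 6835 of all symbols) were called between the gates, 4 to 7 (1750 to 6111) for SOX2-negative cells against control, 0 to 4 (250 to 2439) for SOX2-positive cells against control, 0 to 2 (0 to 5739) for dose in SOX2-negative cells, 0 to 0 (0 to 0) for dose in SOX2-positive cells and 0 to 1 (0 to 3795) for the difference of the dose effects. SOX2-positive cells against control had 6 ligand genes called with no filter on low counts and 4 with the groups compared fitted alone, and 2077 (DESeq2), 2158 (no filter) and 3243 (groups compared alone) of all symbols. Dose in SOX2-negative cells gave 1 ligand gene with DESeq2 and 2 with no filter, and 423, 1551 and 1 of all symbols with DESeq2, no filter and the groups compared alone. Dose in SOX2-positive cells gave 1 ligand gene with no filter, and 5, 107 and 1 of all symbols with DESeq2, no filter and identifiers apart. The difference of dose effects gave 1 ligand gene with no filter, and 15, 308 and 1 of all symbols in the same 3 settings. The causes were not tested. With the replicate number as a block in a paired fit, 5, 7 and 2 ligand genes were called in the 3 comparisons of gates and control, 1 symbol was called for dose in SOX2-negative cells, and no call of a ligand gene changed.

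Uncalled log2 fold changes that changed sign were those of WNT1 between the gates (0.26 with 3 doses averaged, -3.76 to 0.70 with 1 library left out), for SOX2-negative cells against control (-3.70 to 3.67), for SOX2-positive cells against control (-0.066 with DESeq2, -0.0042 with no filter, -0.90 with the block, -1.92 to 4.94), for dose in SOX2-negative cells (-4.98 to 2.32) and for the difference of dose effects (-8.52 to 0.38). Likewise, with 1 library left out, WNT2B ran from -0.41 to 0.41 between the gates and from -1.30 to 0.31 for dose in SOX2-positive cells. For dose in SOX2-negative cells WNT3 ran from -0.47 to 0.76 (-1.45 with identifiers apart) and WNT3A from -3.00 to 0.097. For dose in SOX2-positive cells WNT3 ran from -0.24 to 2.39, WNT3A from -0.016 to 1.13, WNT4 from -0.78 to 0.20, WNT5A from -0.14 to 0.45 and WNT11 from -1.20 to 2.30 (0.15 with the block). For the difference of dose effects WNT3 ran from -2.12 to 0.51, WNT5B from -0.61 to 0.0092, WNT8A from -0.33 to 0.93 and WNT11 from -0.74 to 3.02. Depth limits WNT1, WNT6 and WNT11, which have few counts.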

Other observations

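Of 9 genes of the R-spondin system, which raises the number of WNT receptors at the cell surface, 3 were called between the gates, 2 higher and 1 lower in SOX2-negative cells. Over all symbols tested 24.0% were called in this comparison, 12.9% as higher and 11.1% as lower, so the count is near that share and is not a result about the system. The receptor LGR5 stood at 13.4 to 66.8 CPM in SOX2-negative libraries, 0.127 to 0.667 CPM in SOX2-positive ones and 0.456 and 0.249 CPM in controls, with a log2 fold change of 6.93 ± 0.34 between the gates (adjusted p = 6.5e-07). The ligand RSPO3 was higher by 5.12 ± 0.66 (adjusted p = 0.000274), and averaged 10.3 ± 5.32 CPM in SOX2-negative and 0.407 ± 0.460 CPM in SOX2-positive cells. The related ligand RSPO2 averaged 0.0566 ± 0.0657 CPM in SOX2-negative and 1.14 ± 1.06 CPM in SOX2-positive cells (-4.27 ± 1.09, adjusted p = 0.0165).

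Among 13 intracellular transducers, 3 were higher and 2 lower in SOX2-negative cells, with a median log2 fold change of 0.15 and a count near the same share of all symbols. The TCF and LEF factors differed in direction. LEF1 and TCF7 were higher by 1.99 ± 0.37 and 1.30 ± 0.25 on the log2 scale (adjusted p = 0.00277 and 0.00314). TCF7L1, a repressor of WNT targets in pluripotent cells, averaged 81.1 ± 18.7 CPM in SOX2-negative and 195 ± 35.7 CPM in SOX2-positive cells (-1.19 ± 0.20, adjusted p = 0.00135), and TCF7L2 61.8 ± 11.8 CPM in SOX2-negative and 129 ± 23.6 CPM in SOX2-positive cells (-0.99 ± 0.17, adjusted p = 0.00189).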
